A study of Homo sapiens with 6 samples.

Results

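Alternative 3' splice sites are neighbouring ends of an intron that compete for the same 5' splice site. They were taken as pairs of introns of a gene in the GENCODE release 44 annotation that shared the 5' site, differed in the 3' site by 3 to 200 bases and led into downstream exons ending at the same base. This rule gave 15358 events in 7328 genes and used 26550 of 411793 annotated introns of the quantified transcripts. The measure was the upstream share, the percentage of TPM (abundance scaled by transcript length and library) held by transcripts using the 3' site nearer to the 5' site, out of all transcripts using either site. A higher share of the upstream site means more of the longer downstream exon. The question was whether site choice differed after knockdown of PCBP1 by distance between the sites, by sequence and by gene.

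The libraries came from K562 cells, a human erythroleukemia line, transduced with pLKO.1 lentivirus. The 3 shCtrl libraries carried a hairpin against luciferase, and the 3 shPCBP1 libraries carried a hairpin against PCBP1. All cells were exposed to virus with polybrene overnight and selected in puromycin at 3 µg/mL for 4 days. All 6 libraries were poly-A selected and sequenced as paired ends of 150 cycles. The knockdown group used a single hairpin sequence per the study's methods, and nothing in the labels says that the replicates were separate transductions, so p-values measure the spread between these libraries.

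The 3' end of an intron is recognised in steps. SF1 binds the branch point, U2AF2 binds the run of pyrimidines that follows it, and U2AF1 binds the AG that ends the intron, after which the SF3 complexes of the U2 snRNP settle on the branch point. The AG that is joined is fixed only in the second step of splicing, when PRPF8 and the second-step factors hold the ends together, so AGs close to each other can compete. PCBP1 binds C-rich RNA through KH domains, and it also carries iron to client proteins in the cytosol.

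The stretches below show how the competing sites lie, for events whose shares are described further on. They were read from the GRCh38 (hg38) genome on the strand of the gene, 5' to 3'. Capitals mark the AG that ends each of the competing introns. In the first 7, both AGs lie in the stretch shown, and in the others each site has its own line, with 22 intron bases and 3 exon bases.
CELF1, 3 bases apart (chr11:47484518-47484545, minus strand): cttttctgttttactctcttAGcAGtgg
FDXR, 3 bases apart (chr17:74866874-74866901, minus strand): cagctgccaccctgttccccAGcAGcac
MELK, 4 bases apart (chr9:36607552-36607581, plus strand): ttctttttccctctttctctcAGgcAGatg
GMPPA, 20 bases apart (chr2:219505688-219505717, plus strand): cccccAGggcctctcttctgcttctAGgga
PTBP1, 20 bases apart (chr19:808353-808382, plus strand): tttgaAGgcgtctacggtgacgtgcAGcgc
RANBP2, 24 bases apart (chr2:108775705-108775734, plus strand): tAGtattttgtgacttcctctttgcAGaaa
SLC25A39, 24 bases apart (chr17:44322526-44322555, minus strand): cAGtgccctcctctctccaatccacAGgga
PRXL2B upstream site (chr1:2588900-2588924, plus strand): gactgcctgcccgctgctacAGgtg
PRXL2B downstream site (chr1:2588932-2588956, plus strand): agtgctcctgcatttcgtccAGaag
VKORC1 upstream site (chr16:31093480-31093504, minus strand): ggaaatcacctttctcgggcAGggt
VKORC1 downstream site (chr16:31093419-31093443, minus strand): ccccaccccacccctctgccAGgtg
ZWILCH upstream site (chr15:66508724-66508748, plus strand): ttgctttttgcctttcctatAGgtg
ZWILCH downstream site (chr15:66508819-66508843, plus strand): cacatgtggttctgcgtttcAGgaa
UROD upstream site (chr1:45012835-45012859, plus strand): tatgaacccgcgctttccccAGcct
UROD downstream site (chr1:45012885-45012909, plus strand): cccacccccacctgatcgccAGacc

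The knockdown was checked first. PCBP1 was counted at 40567, 38411 and 37800 normalized counts in the shCtrl libraries and at 6624, 7276 and 7221 after knockdown, a level of 18.1% of shCtrl (log2 fold change -2.47, SE 0.0439, DESeq2). Total estimated counts ranged from 67066747 to 140522444 per library, and the shallowest library was in shPCBP1. All 9 erythroid markers were at 1 TPM or more in every library, with summed levels of 28429 to 33925 TPM in shCtrl and 32436 to 33706 TPM in shPCBP1. Of 12 markers of other cell types, 4 reached 1 TPM in every library, and the list summed to 110 to 123 TPM in shCtrl and 89.7 to 105 TPM in shPCBP1; their part in the results was not tested.

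Annotated events were most frequent at the shortest distance. There were 1915 events at 3 bases, 2826 at 4 to 15, 5874 at 16 to 60 and 4743 at 61 to 200. Nearly all introns began with GT (98.9%), and 99.2% of upstream and 99.7% of downstream sites ended in AG. An event was tested when each form averaged at least 10 estimated counts over the 6 libraries. This left 6335 events (41.2%) in 3608 genes, of which SBF1 held the most, 18. In 4421 further events only 1 form reached that level, the upstream form in 2733 and the downstream form in 1688, and in 4602 events neither form did. Of the tested events, 895 reached the minimum in only 1 group's own mean.

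The preferred site changed with distance. At 3 bases the median upstream share in shCtrl was 67.8% over 963 events. It was 90.4% at 4 bases (274 events), 97.6% at 6 bases (125 events) and 92.0% at 9 bases (68 events), so that the first AG was used almost alone. At longer distances the medians were lower and uneven. The median was 71.5% at 12 bases (78 events), 39.7% at 13 bases (52 events), 46.8% at 15 bases (117 events), 10.1% at 16 bases (59 events) and 42.0% at 17 bases (76 events). It was 9.31% at 22 bases (63 events), 34.6% at 24 bases (107 events) and 51.6% at 25 bases (55 events). The upstream site held most of the TPM in 80.8% of events at 5 bases in 28.8% at 16 bases and in 54.5% at 25 bases. From 16 to 60 bases the median was 46.5%, and from 61 to 200 bases it was 53.3%. These are levels over events with both forms measured, so sites used in nearly every transcript are under-represented.

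The profile was close to the same in shPCBP1. The median upstream share there was 69.0% at 3 bases, 96.3% at 6 bases, 67.3% at 12 bases, 39% at 13 bases and 7.05% at 16 bases. From 3 to 30 bases, the medians lay farthest apart at 26 bases, with 47.7% in shCtrl and 59.5% in shPCBP1 over 53 events, and at 25 bases, with 51.6% and 62.0% over 55 events. At 21 bases they were 29.6% and 36.6% over 119 events.

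**Figure D1:**
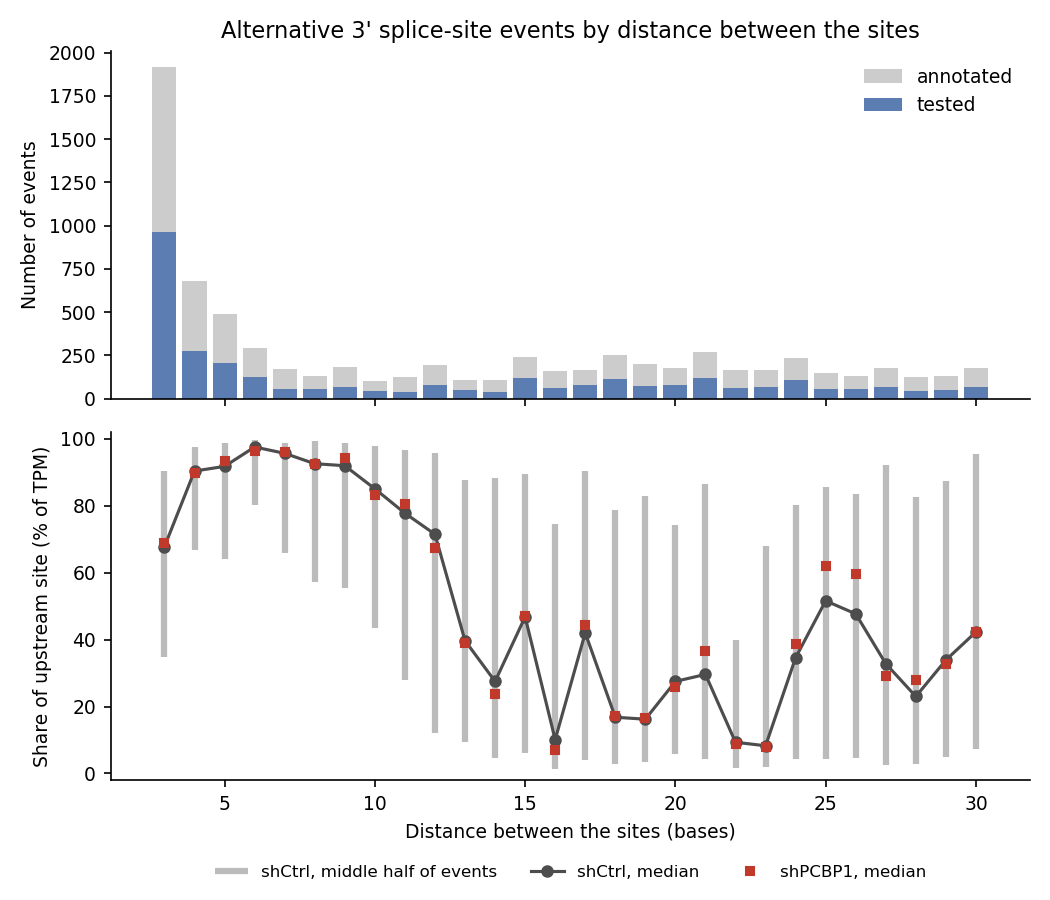
Top, number of annotated (grey) and tested (blue) alternative 3' splice-site events at each distance from 3 to 30 bases; bottom, upstream share in percent of TPM, as the shCtrl median (grey circles, with bars from the 25th to the 75th percentile of events) and the shPCBP1 median (red squares). The median was 97.6% at 6 bases and 10.1% at 16 bases in shCtrl, and the shPCBP1 medians followed the same course.

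Events 3 bases apart are tandem acceptors, in which the ends of both introns read NAG next to each other, and 952 of the 963 tested had an AG at both sites. Their use followed the base before the AG. Where the upstream site was CAG the median upstream share in shCtrl was 70.8% (553 events), and for TAG it was 73.1% (258 events). For AAG it was 48.3% (128 events), and for GAG 16.3% (16 events). The share also went with the letter of the downstream site. The median upstream share was 59.5% where the downstream site was CAG (652 events), 65.4% for TAG (103 events), 89.7% for AAG (161 events) and 96.2% for GAG (42 events). The share of the first AG was thus lowest where C or T preceded the second AG. With CAG at both sites, the median was 63.8% over 384 events.

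The order of the letters was the same in shPCBP1, with medians of 70.8%, 75.2%, 46.8% and 16.3% for CAG, TAG, AAG and GAG upstream. In single libraries the CAG medians ranged from 71.1% to 73.7% in shCtrl and from 70.8% to 72.2% in shPCBP1, and those of AAG from 46.5% to 48.4% and from 47.4% to 50.1%. Among events with transcripts that differed at this site alone, the median shares in shCtrl were lower, at 63.7%, 60.4%, 38.1% and 4.51% (253, 127, 63 and 8 events), and CAG then stood above TAG.

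Across all 6335 tested events, the log2 ratio of the forms was compared between the groups with limma (two-sided, Benjamini-Hochberg adjustment). A call needed an adjusted p under 0.05 and a difference over 5 percentage points, and 0 events (0%) were called. The smallest adjusted p was 0.124. At an unadjusted p under 0.05 there were 631 events (9.96%). edgeR's quasi-likelihood test on the counts also called 0, with 448 events at an unadjusted p under 0.05. The differences lay in both directions. The median difference, shPCBP1 minus shCtrl, was -0.0187 points and the median absolute difference was 2.03 points, beside a median SD between replicates of 2.21 points in shCtrl and 2.37 points in shPCBP1. The share was higher in shPCBP1 in 3121 events and lower in 3208. It differed by over 5 points in 1775 events and by over 20 points in 375. The share was exactly 0 or 100 in at least 1 library in 1719 events.

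Because no event was called, candidate events are described below, by a rule chosen after this result was seen. Candidates had an unadjusted limma p under 0.05, a difference over 5 points and library shares that did not overlap between the groups. A lack of overlap in a candidate is thus part of the rule and no further result. There were 280 (4.42%) in 257 genes, 127 with a higher and 153 with a lower share in shPCBP1. Groups did not overlap in 1070 tested events (16.9%). In edgeR's test, 178 of the 280 had an unadjusted p under 0.05. Only 110 could be fitted on transcripts whose introns differed at this site alone, where 106 kept their direction. Both fits used the libraries that had chosen the candidates, so these counts are not independent support. None of the candidates is a call, and their transcripts can differ elsewhere too.

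**Figure D2:**
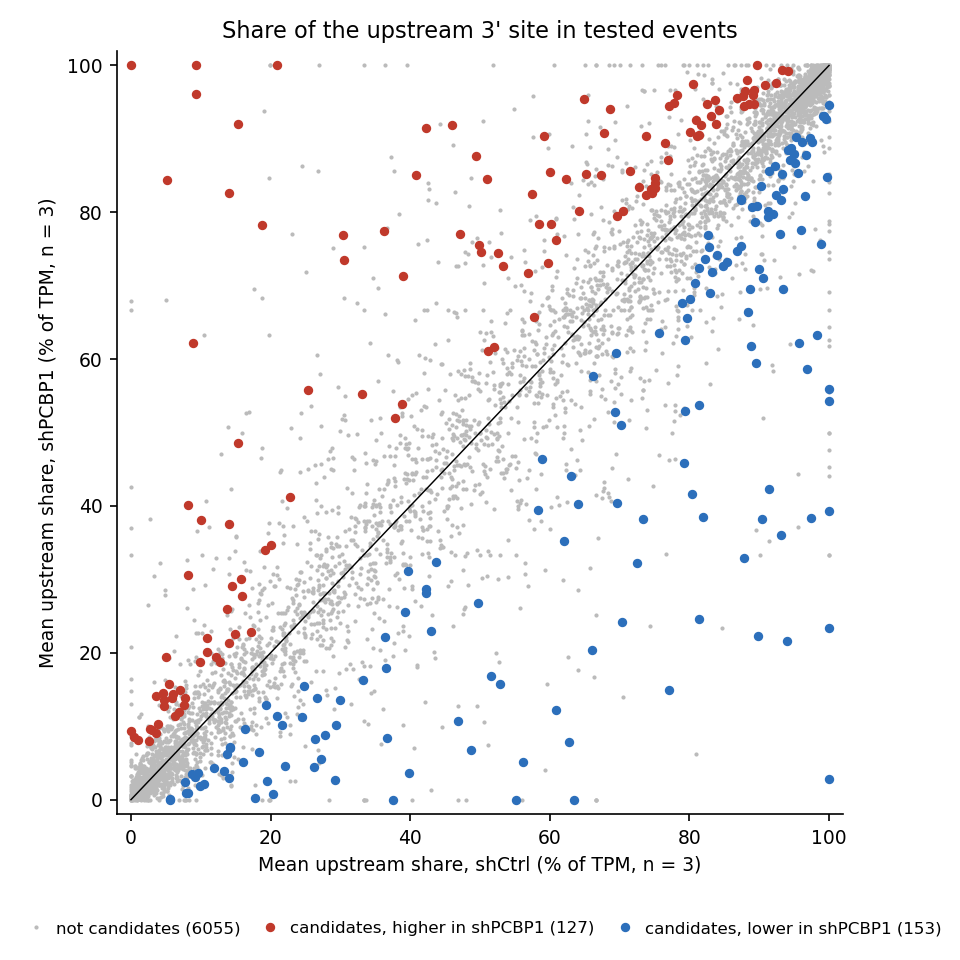
Mean upstream share in shCtrl (x axis) and shPCBP1 (y axis), in percent of TPM over 3 libraries each, for the 6335 tested events; the diagonal marks equal shares. Red and blue points are the 127 and 153 candidate events with higher and lower shares in shPCBP1, and 0 events passed the adjusted threshold.

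Mirror events at the 5' splice site, in which introns share the 3' site, were read the same way. Of 8417 annotated, 3414 were tested, 0 (0%) were called by limma and 280 (8.20%) had an unadjusted p under 0.05. The candidate rule took 138 (4.04%), 78 higher and 60 lower for the upstream site. The median absolute difference was 2.12 points. The 3' and 5' events were not tested against each other.

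No distance class moved as a whole. The median difference was 0.003 points at 3 bases, -0.039 at 4 to 15 bases, 0.006 at 16 to 60 bases and -0.053 at 61 to 200 bases. Single-library medians at 3 bases were 69.3%, 69.3% and 68.8% in shCtrl and 69.0%, 68.1% and 69.8% in shPCBP1, and the groups overlapped. Candidates made up 4.26% of tested events at 3 bases (16 higher, 25 lower), 2.35% at 4 to 15 bases (11 and 16), 4.36% at 16 to 60 bases (51 and 54) and 5.89% at 61 to 200 bases (49 and 58). These shares were not tested against each other.

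The level differed with the place of the segment between the sites. In coding sequence the median upstream share in shCtrl was 76.6% over 4497 events, in the 5' UTR 45.9% over 863, in the 3' UTR 18.8% over 209 and in noncoding transcripts 27.3% over 766. The spread differed as well, with a median SD in shCtrl of 1.78 points in coding sequence and 3.81 points in the 5' UTR. Candidates made up 3.78% of coding events and 8.11% of 5' UTR events. In coding sequence, 2397 events kept the reading frame (a distance that is a multiple of 3), with a median upstream share of 73.2% in shCtrl and 73.1% in shPCBP1. The 2100 that shift the frame had 80.7% and 80.5%.

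Among events with at least 5 TPM, over 5 points and no overlap, those of lowest p with a higher upstream share in shPCBP1 included BCAP29, KMT2C, VKORC1, PRXL2B and SIRT2, and none was called (adjusted p between 0.124 and 0.224, limma). PRXL2B, a peroxiredoxin-like enzyme of prostaglandin metabolism, used the upstream site for 45.4%, 35.1% and 36.3% of its TPM in the control libraries and for 71.4%, 74.5% and 68.1% in shPCBP1, at sites 32 bases apart in coding sequence. The preferred site switched, and the separation of the groups is part of the rule that chose the event. Its forms summed to only 5.85 TPM, close to the minimum of 5 TPM. The log2 ratio difference was 1.90 (SE 0.339, adjusted p 0.215), with means of 38.9% and 71.3%. The transcripts that differ only here gave the same means. They are 4 of the 5 upstream and all 4 downstream transcripts, so this is no separate check.

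VKORC1 encodes the vitamin K epoxide reductase, the target of warfarin. Its upstream site, 61 bases before the main one, held 6.35%, 4.30% and 3.29% in shCtrl and 13.3%, 14.8% and 15.3% in shPCBP1. It remained the minor site in all libraries, and the separation of the groups is part of the rule that chose it. The log2 ratio difference was 1.81 (SE 0.298, adjusted p 0.204). The gene overlaps another coding model on the same strand, and its own level differed by -0.05 on the log2 scale (SE 0.0618).

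SIRT2, a cytosolic deacetylase, had a minor 5' UTR site 104 bases upstream. Its share was 6.26%, 5.04% and 4.83% in shCtrl and 13.9%, 19.5% and 14.0% in shPCBP1 (log2 ratio difference 1.59, SE 0.295, adjusted p 0.224). C made up 48.0% of the 50 intron bases before the upstream site and 56.0% before the downstream site. With estimated counts in place of TPM the SIRT2 difference was 2.85 points, against 10.4 with TPM. BCAP29, a protein of the endoplasmic reticulum, had an upstream 5' UTR site that was listed at 0 in every control library, against 4.74%, 8.53% and 15% in shPCBP1. With estimated counts its difference was 2.88 points, against 9.42 with TPM. That form is 1 annotated transcript at 0 TPM in shCtrl, so it met the count minimum only through the shPCBP1 libraries. The contrast is thus partly set by the filter. The gene also overlaps the readthrough gene DUS4L-BCAP29 on the same strand.

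KMT2C, a histone H3 lysine 4 methyltransferase, had 4 candidate events. For the pair 72 bases apart, the upstream share was 80.5%, 80.0% and 74.2% in shCtrl and 96.1%, 97.6% and 94.2% in shPCBP1 (log2 ratio difference 2.47, SE 0.373, adjusted p 0.185). The upstream site is itself a tandem acceptor, and between its AGs, 3 bases apart, the share was 66.9%, 69.4% and 75% against 81.9%, 79.0% and 79.5%. With protein-coding transcripts only, that difference was 4.80 points, against 9.69. These 2 events share transcripts. Another candidate, at sites 69 bases apart, sets the second of these AGs against the downstream site of the 72-base pair. Its difference was 25.6 points, and it shares transcripts with both events. The remaining candidate, at sites 71 bases apart before the preceding exon, went the other way. Its upstream share was 77.7%, 85.7% and 85.5% in shCtrl and 76.3%, 61.8% and 68.6% in shPCBP1. KMT2C has near-identical copies elsewhere in the genome, so its values are uncertain.

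By the same limits, the events of lowest p with a lower upstream share included RANBP2, ASRGL1, TMC6, GMPPA and ZWILCH, all uncalled. RANBP2 is a nucleoporin with near-identical RGPD copies, which makes its estimate uncertain. Its upstream site lies 24 bases before the main one and held 12.6%, 9.03% and 9.68% in shCtrl and 2.01%, 2.03% and 2.20% in shPCBP1 (log2 ratio difference -2.30, SE 0.242, adjusted p 0.124). The difference was -8.37 points, and -4.99 points with estimated counts (adjusted p 0.0483, limma). The intron there is poor in C, at 6% of the 50 bases before the upstream site.

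ZWILCH belongs to the complex that recruits dynein to kinetochores. The upstream of its 5' UTR sites, 95 bases apart, held 61.6%, 63.5% and 67.1% in shCtrl and 42.7%, 36.9% and 41.3% in shPCBP1. The major site thus switched in all 3 libraries. The log2 ratio difference was -1.40 (SE 0.236, adjusted p 0.206), and the transcripts that differ only here gave 63.9% and 38.3%.

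TMC6, a transmembrane channel-like protein of the endoplasmic reticulum, had a minor 5' UTR site at 18.8%, 10.7% and 12.6% in shCtrl and 2.46%, 2.36% and 3.98% in shPCBP1 (adjusted p 0.185). The TMC6 transcripts that differ only here gave 43.7% and 14.1%, a difference of -29.6 points against -11.1. The gene itself was lower, by 0.77 on the log2 scale (SE 0.0393, DESeq2 adjusted p 1.36e-82). GMPPA, a regulator of GDP-mannose synthesis, had 9.96%, 8.53% and 7.89% at its upstream site in shCtrl and 3.56%, 3.64% and 3.44% in shPCBP1 (adjusted p 0.204). ASRGL1, an asparaginase, had 99.5%, 100% and 99.4% in shCtrl and 76.4%, 87.5% and 90.6% in shPCBP1 (adjusted p 0.135). In ASRGL1 the second site was nearly silent in shCtrl, at 0.0448 TPM, and averaged 1.53 TPM in shPCBP1. Most of its measured level thus came from the shPCBP1 libraries. Its difference was -14.8 points, but -3.75 with estimated counts and -31.1 over transcripts that differ only at this site.

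**Figure D3:**
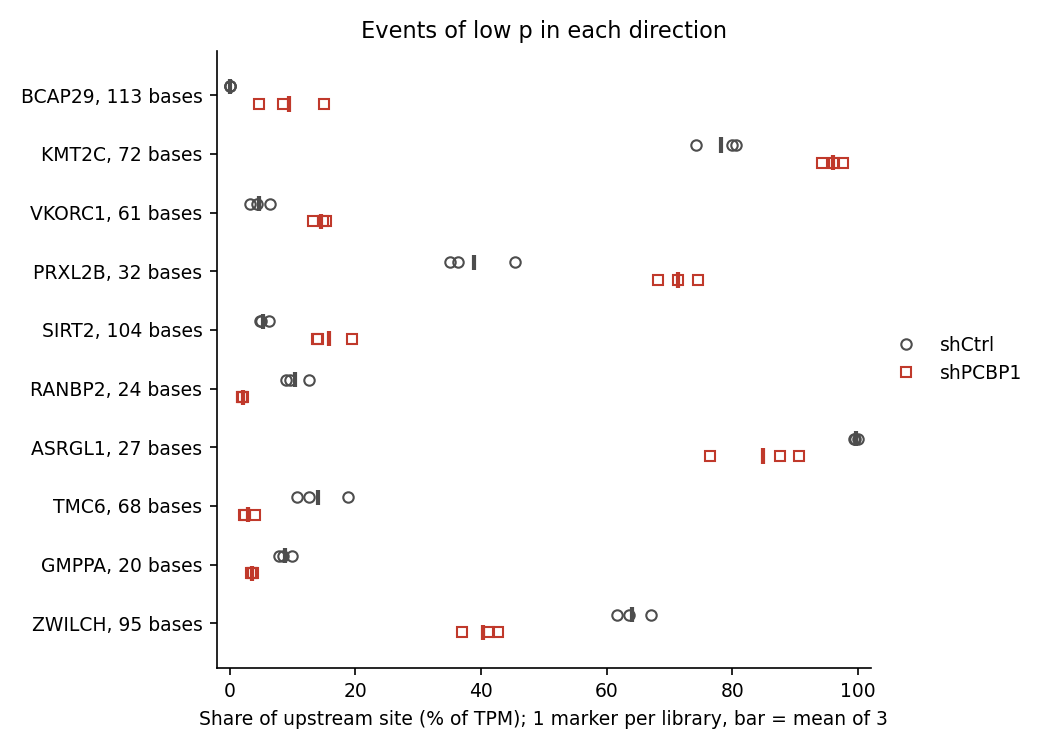
Upstream share in percent of TPM for 5 of the events of lowest p with a higher share and 5 of those with a lower share in shPCBP1, among non-overlapping events with at least 5 TPM and over 5 points, with the distance between the sites beside each gene. Grey circles are the 3 shCtrl libraries, red squares the 3 shPCBP1 libraries and bars the group means; the groups do not overlap in any of these events, which is part of the rule that chose them, and none passed the adjusted threshold.

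Among sites 4 to 15 bases apart with a total of at least 5 TPM, the lowest p belonged to MELK, a mitotic kinase. Its first AG held 99.9%, 100% and 99.6% in shCtrl and 97.8%, 98.8% and 98.2% in shPCBP1 (adjusted p 0.206). The difference of -1.57 points was under the 5 points that a call needs. The second site is used by a single transcript, annotated as subject to nonsense-mediated decay. That transcript averaged 0.0466 TPM in shCtrl and 0.514 TPM in shPCBP1, so most of its measured level came from the shPCBP1 libraries.

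Of the 41 candidates at tandem acceptors, 23 had a total of at least 5 TPM, with 12 higher and 11 lower in shPCBP1. In 11 of them both sites read CAG, and 18 lay in coding sequence. CELF1, which binds GU-rich RNA, had 69.3%, 72.9% and 72.4% in shCtrl and 87.9%, 82.5% and 86.3% in shPCBP1 (log2 ratio difference 1.24, SE 0.253, adjusted p 0.265). HIPK1, a nuclear kinase, had 63.2%, 67.5% and 61.8% against 82.2%, 74.4% and 83.8%. In both genes the first AG was used more in shPCBP1, and the separation of the libraries is part of the candidate rule.

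The opposite held in RBM42, an RNA-binding protein, with 89.0%, 97.1% and 85.7% in shCtrl and 76.0%, 67.2% and 70.0% in shPCBP1. PIP5K1A, a phosphatidylinositol kinase, had 41.9%, 42.9% and 46.2% against 30.1%, 31.5% and 35.4%. HCFC1, a transcriptional coregulator, had 41.8%, 39.6% and 37.8% against 27.1%, 33.2% and 33.0%. The HCFC1 difference was -8.65 points, and -3.53 with estimated counts. That of PIP5K1A was -11.3 points, and -6.70 over transcripts that differ only at this site. These 3 genes and HIPK1 were named after their values were seen; their adjusted p lay between 0.335 and 0.498.

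Iron, heme and iron-sulfur genes were read as a list, since PCBP1 is an iron chaperone. Of the 68 tested events in 33 of these genes, 0 were called and 18 had an unadjusted p under 0.05 (26.5%, beside 9.96% of all tested events), 7 higher and 11 lower in shPCBP1, in 12 genes. Several of these events share a gene and its transcripts, and 11 of the 18 differed by 5 points or less. The list's median absolute difference was 1.62 points, beside 2.03 over all tested events. Candidates were 5 of 68 (7.35%, beside 4.42%), in ALAD, FDX2, FDXR, SLC25A39 and UROD, all named after their values were seen.

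FDXR, the mitochondrial ferredoxin reductase, had a tandem acceptor at which the first AG held 11%, 10.0% and 11.6% in shCtrl and 19.2%, 17.2% and 23.8% in shPCBP1 (log2 ratio difference 1.03, SE 0.246, adjusted p 0.317). The share was higher in shPCBP1, and the separation of its libraries is part of the candidate rule. With protein-coding transcripts only, the difference was 3.89 points, against 9.16. The gene fell by 1.13 on the log2 scale (SE 0.0524, DESeq2 adjusted p 2.82e-99), and the form with the second AG went from 47.8 to 18.6 TPM while the form with the first went from 5.83 to 4.67 TPM. C made up 54.0% of the 50 bases before each of its sites. At other sites of FDXR, 26 and 24 bases apart, the upstream share was 99.2% and 98.9% in shCtrl and 96.5% and 96.4% in shPCBP1. For the pair 24 bases apart the difference was -2.59 points, and -0.320 over transcripts that differ only there.

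SLC25A39 encodes the carrier that imports glutathione into mitochondria. Its upstream coding site, 24 bases before the main one, held 24.4%, 24.2% and 25.9% in shCtrl and 16.2%, 14.6% and 15.7% in shPCBP1. The replicates lay within 2 points of each other in each group (log2 ratio difference -0.85, SE 0.172, adjusted p 0.265). The upstream form went from 47.6 to 24.4 TPM. In the 5' UTR of the same gene, sites 13 bases apart had 9.90%, 10.2% and 8.00% against 4.80%, 5.38% and 4.16%, a difference of -4.58 points, or -7.24 over transcripts that differ only there.

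Enzymes of heme synthesis were among the events too. UROD, uroporphyrinogen decarboxylase, used the upstream 5' UTR site for 13.6%, 9.89% and 12.9% in shCtrl, against 20.8%, 20.4% and 17.2% in shPCBP1 (adjusted p 0.353), and ALAD, which makes porphobilinogen, had 12.2%, 18.9% and 16.1% against 28.8%, 28.2% and 33.3% (adjusted p 0.387). UROD was measured at 385 TPM in total and ALAD at 6.02 TPM, and the ALAD form is a transcript that retains an intron. FDX2, a ferredoxin of iron-sulfur assembly, had 18.0%, 23.3% and 16.6% against 13.6%, 12.3% and 13% (adjusted p 0.466), and 2 other coding models overlap it on the same strand. The FDX2 difference was -6.35 points, and -14.3 over transcripts that differ only at this site.

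A smaller difference was seen in SLC11A2. This gene, which encodes the ferrous iron importer DMT1, used the upstream site alone (100%) in every control library, against 96.5%, 98.6% and 96.6% in shPCBP1 (adjusted p 0.185). The second form is a transcript annotated for nonsense-mediated decay, and it averaged 0 TPM in shCtrl and 0.539 TPM in shPCBP1. It met the count minimum only through the shPCBP1 libraries, so the contrast is partly set by the filter. The groups did not overlap, and the difference was under 5 points.

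**Figure D4:**
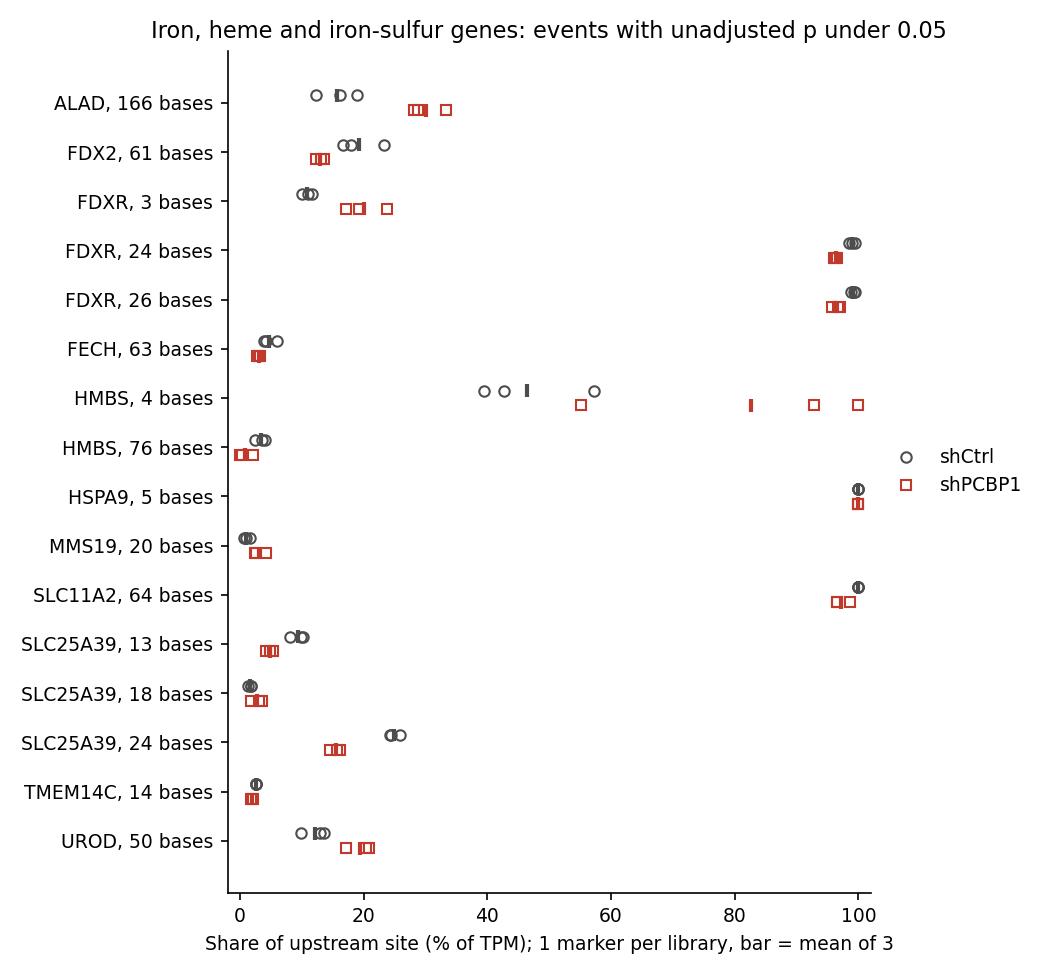
Upstream share in percent of TPM at 16 of the 18 events of iron, heme and iron-sulfur genes with an unadjusted limma p under 0.05, with the distance between the sites beside each gene; grey circles are shCtrl libraries, red squares shPCBP1 libraries and bars group means of 3. At the SLC25A39 sites 24 bases apart the groups are 24.2% to 25.9% and 14.6% to 16.2%, while at most other events the differences are a few points; 0 of these events passed the adjusted threshold.

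The factors that recognise 3' sites were examined for their own sites and levels. Of 22 tested events in 10 such genes, 0 had an unadjusted p under 0.05 (limma), beside 9.96% of all tested events. The lowest p belonged to CHERP, a U2-associated protein, with 8.53%, 10.7% and 11.2% in shCtrl and 7.88%, 6.13% and 7.50% in shPCBP1 (adjusted p 0.531). Second-step factors had 4 tested events and 0 with an unadjusted p under 0.05, too few events to read against the 9.96%. In PRPF8, the core of the spliceosome, the upstream site held 99.9% in every shCtrl library and 100%, 99.4% and 99.9% in shPCBP1 (adjusted p 0.900), and the groups overlapped.

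Among poly-C and pyrimidine-tract binding proteins, 1 of 15 tested events was a candidate (6.67%, beside 4.42% of all tested events). PTBP1, the polypyrimidine-tract binding repressor, had 88.2%, 78.0% and 84.8% at the upstream of sites 20 bases apart in shCtrl and 94.4%, 94.1% and 97.6% in shPCBP1 (log2 ratio difference 1.83, SE 0.452, adjusted p 0.325). The difference of 11.7 points was 7.54 with estimated counts. Both upstream transcripts are annotated for nonsense-mediated decay, and all forms of this event summed to only 8.89 TPM.

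At the gene level more of these factors changed, by small amounts. Over all genes, DESeq2 gave 5301 of 18208 at an adjusted p under 0.05 (29.1%; 16.5% higher and 12.7% lower). Of 27 factors of the 3' site and branch point, 16 rose and 1 fell, with a median log2 fold change of 0.13. U2AF2 rose by 0.37 (SE 0.0420, adjusted p 1.99e-16) and SF3B4, a subunit of the SF3B complex, by 0.40 (SE 0.0593, adjusted p 3.93e-10). SF3B6, whose product touches the branch point, fell by 0.15 (SE 0.0442, adjusted p 0.00446). U2AF1 differed by -0.09 (SE 0.174), an uncertain estimate because of its near-identical copy U2AF1L5.

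Of 14 second-step factors, 6 rose and 1 fell. The helicase gene DHX16 rose by 0.23 (SE 0.0458, adjusted p 1.07e-05), and CDC40 fell by 0.15 (SE 0.0548, adjusted p 0.0293). Of 13 poly-C and pyrimidine-tract binding proteins in the gene test, 6 rose and 3 fell, PCBP1 among the latter. PCBP2, the closest relative of PCBP1, fell by 0.24 (SE 0.0320, adjusted p 2.55e-12), and PTBP1 rose by 0.29 (SE 0.0351, adjusted p 4.13e-15).

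Other lists were read in the same way. Splicing regulators had 4 candidates among 84 tested events (4.76%, beside 4.42% of all tested events), in CELF1, RBM3, SON and SRSF9. SON, a protein of nuclear speckles, had 51.7%, 50.5% and 51.2% at the upstream of coding sites 53 bases apart in shCtrl and 60.2%, 57.7% and 65.4% in shPCBP1 (adjusted p 0.463). Both SON forms were abundant, and the groups were apart, as the candidate rule requires. Genes with 3' sites known from SF3B1-mutant cells had 1 candidate among 34 tested events (2.94%, beside 4.42%), in TMEM214. The genes that the study tested by RT-PCR had 0 candidates among 5 tested events (0%, beside 4.42%). The study's RT-PCR events were skipped exons, so these 3' site events are of another type and do not bear on them. The lowest p there was GOLGA2, a Golgi matrix protein, with 99.0%, 99.7% and 98.0% against 97.6%, 95.3% and 94.4% (adjusted p 0.353).

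Chromatin and deacetylase genes had 12 candidates among 113 tested events (10.6%, beside 4.42% of all tested events), 7 higher and 5 lower, 4 of them the KMT2C events above. BRD8, a subunit of the NuA4 acetyltransferase, had 87.3%, 87.0% and 88.9% in shCtrl and 98.4%, 96.8% and 92.4% in shPCBP1 (adjusted p 0.377). PBRM1, a subunit of the PBAF remodeller, had 93.1%, 95.9% and 96.1% at a tandem acceptor against 85.9%, 90% and 88.1% (adjusted p 0.364). These genes moved in opposite directions, and the separation of their groups is part of the candidate rule.

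Cell cycle and replication genes had 5 candidates among 59 tested events (8.47%, beside 4.42%), 3 higher and 2 lower. AURKB, the chromosomal passenger kinase, had 13.1%, 15% and 14.0% at its upstream 5' UTR site in shCtrl and 20%, 21.4% and 22.4% in shPCBP1 (adjusted p 0.406). With estimated counts the AURKB difference was 2.23 points, against 7.25. CDK4, the G1 kinase, had the lowest p of the list at sites 16 bases apart, where the share was 1.57%, 1.67% and 1.77% against 0.646%, 0.770% and 0.772% (adjusted p 0.199). The CDK4 groups were apart there, but by less than 1 point (-0.939, and -0.286 with estimated counts). The lower candidates of the list were 2 other CDK4 events, which share a downstream site with each other but not with the pair above. At sites 37 bases apart the share was 9.65%, 9.33% and 21.0% against 1.76%, 3.66% and 6.49% (-9.35 points, adjusted p 0.399). At sites 93 bases apart it was 6.82%, 8.34% and 13.7% against 2.67%, 4.05% and 4.03% (-6.04 points, adjusted p 0.353). The upstream form there is the same transcript as in the pair 16 bases apart. Both rest in part on shCtrl replicate 3, without which the differences were -5.52 and -3.99 points. Genes of nonsense-mediated decay and RNA surveillance had 1 candidate among 32 tested events (3.12%, beside 4.42%), in DIS3L. The lowest p among those with at least 5 TPM was EXOSC8, an exosome subunit, with 95.3%, 95.0% and 95.0% against 98.0%, 97.0% and 98.4% (adjusted p 0.315). The EXOSC8 difference of 2.70 points ranged with the transcripts counted, from 0.271 with protein-coding ones to 65.5 with those that differ only at this site. The genes BRD8, PBRM1, SON, AURKB and DIS3L and the lower CDK4 candidates were named after their values were seen.

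Since PCBP1 binds C-rich RNA, the base makeup of the introns was described. C made up a median of 26.0% of the 50 intron bases before the upstream site in candidates with a higher share, 28.0% in those with a lower share and 24% in all tested events. Before the downstream site the medians were 30.0%, 30.0% and 26.0%. Candidates also lay at longer median distances, 43 and 42 bases against 30 in all tested events. Their median total TPM was lower, at 7.39 and 7.78 against 13.9. Over tested events, the median C share before the downstream site was lowest at 4 to 15 bases and 24% at 3 bases. It was 26.0% at 16 to 60 bases and 30.0% at 61 to 200 bases. The C share of candidates was not tested apart from distance or level. The quartiles before the upstream site were 20% and 34.0% for higher candidates, 20% and 36.0% for lower candidates and 16% and 34.0% for all tested events, so the ranges overlapped widely. Pyrimidines as a whole differed little, with 60%, 58.0% and 58.0% C plus T before the upstream site.

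The motif CCCC, searched on the strand of the gene in the same 50 bases, was present in 29.9% of higher candidates, 35.9% of lower candidates and 26.9% of all tested events. TTTT was present in 41.7%, 38.6% and 43.3%. The segment between the sites lay in the 5' UTR in 26.8% of higher and 23.5% of lower candidates and in 13.6% of all tested events. In 5' UTR events alone, the median C share before the upstream site was 29.0% in higher candidates, 23.0% in lower candidates and 24% over all, and in coding events it was 26.0%, 30.0% and 24%. Lower candidates thus stood above all tested events in coding sequence. In the 5' UTR the 36 lower candidates, at 23.0%, lay close to the 24% over all. These are descriptions without a test, and a match of letters is not a binding site.

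**Figure D5:**
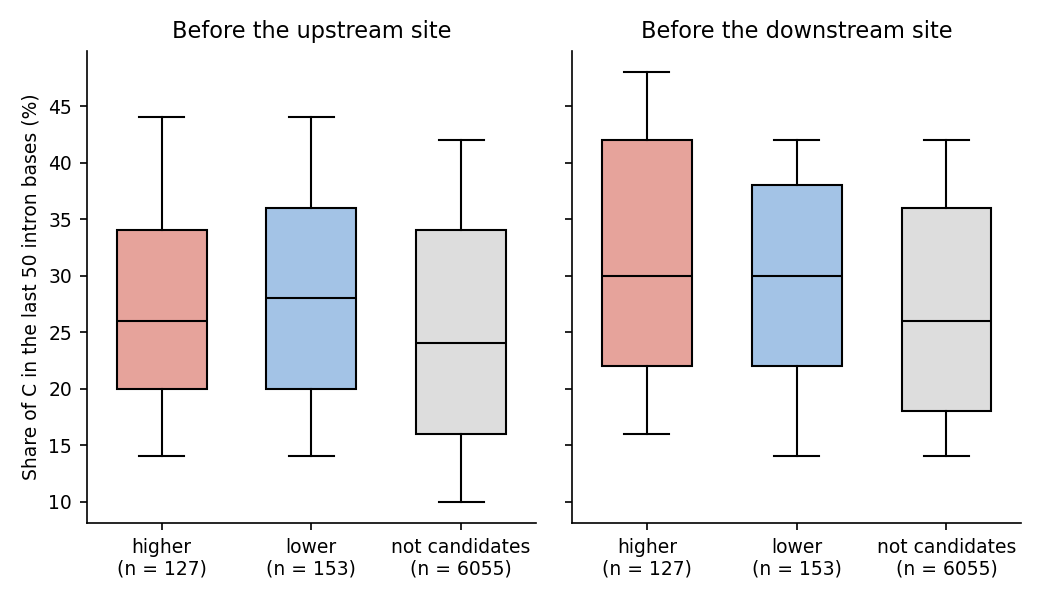
Share of C in the 50 intron bases before the upstream site (left) and the downstream site (right), in percent, for candidates with a higher (red) or lower (blue) upstream share in shPCBP1 and for other tested events (grey). Boxes span the quartiles, lines are medians and whiskers run from the 10th to the 90th percentile; the medians before the upstream site are 26.0%, 28.0% and 24%, and the boxes overlap.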

How the data were processed

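Per the labels and the study's methods, reads of poly-A RNA were quantified by the authors with Salmon 1.10.2 (version from the submitters' processing notes, which also name the build hg38). The deposited files give an estimated count and a TPM per transcript. The annotation release of the index was not given in the sources used here. Of 252045 transcripts, 251142 matched GENCODE release 44 with the same version. The others, with 0.328% to 0.339% of each library's counts, were not used. Junction reads were not used here, so a share rests on Salmon's division of reads among transcripts, and transcripts that differ only at sites 3 bases apart are told apart by reads across that junction alone.

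TPM was summed over the transcripts of each form. The log2 ratio of the forms, each with 0.1 TPM added, was fitted in limma 3.58.1 on group alone, with the variance trend following the mean log2 of the total TPM, over events averaging at least 10 estimated counts in each form. Calls needed an adjusted p under 0.05 and a difference over 5 points. Genes were tested with DESeq2 1.42.0 on summed, rounded counts with a minimum of 10 over all libraries, and edgeR 4.0.16 was an alternative (R 4.3.3, Python 3.11.15). The scripts were tested on simulated data.

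Named events were the largest called changes, filled to 6 per direction with uncalled, non-overlapping events of lowest p with at least 5 TPM and a difference over 5 points, 1 per gene and direction, and the event of lowest p with at least 5 TPM in each distance class and gene list. Members, lists and rules were chosen with earlier results of these data known. Replicates of a group differed by more than sampling noise (chi-square per degree of freedom 6.20 to 15.1). Their numbers did not pair the libraries, since deviations of same-numbered libraries correlated at 0.022, 0.007 and -0.022. Alternatives changed the pseudocount, filters, unit, transcripts counted, test, variance trend, replicate block and libraries. Some items that these rules select are not reported here.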

Additional observations from a re-analysis of the deposited data

How the results depend on the processing

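The count of called events stayed at 0 under a count of 10 in either form, no count filter, a minimum of 5 TPM, a difference over 10 points, edgeR, 1 event per gene and limma without trend. The replicate block, fitted although the numbers did not pair the libraries, also called 0 events (570 at an unadjusted p under 0.05). Other settings called a few: 1 with a pseudocount of 0.01 TPM (1 higher, BCAP29), 3 with 1 TPM (3 lower, RANBP2 and PNP among them), 1 with estimated counts (1 lower, LTK), 1 with protein-coding transcripts only (1 higher, BCAP29), and 3 with introns differing only at this site (3 lower: POLE, MFSD10 and SLC12A2-DT). Leaving out each library in turn gave 0 to 1 called events, 0 higher and 0 to 1 lower; the call was ZPR1, without shPCBP1 replicate 2. PNP, LTK, POLE, MFSD10, SLC12A2-DT and ZPR1 were named after their values were seen. The 5' splice-site calls rose from 0 to 3 with 1 TPM, and were 0 to 1 without single libraries (1 without shPCBP1 replicate 1). Candidate counts, added after seeing the data, went from 280 (127 higher, 153 lower) to 175 (82 and 93) with at least 5 TPM, 177 (73 higher) over 10 points, 176 (88 lower) with protein-coding transcripts, 145 (53 and 92) with introns differing only at this site, and 161 (73 and 88) with 1 event per gene, settings that keep fewer events by construction. In edgeR, on the same events, lower candidates went from 153 to 100; the cause was not tested. Of 76 events followed, the direction reversed for FECH at 63 bases, to 7.19 points with introns differing only at this site, and for PRPF8, whose difference ranged from -0.248 to 0.0560 points over the fits without 1 library; the cause was not tested. Under every setting run, the median differences of the distance classes moved by less than the SD of the library medians, PCBP1 stayed lower at an adjusted p under 0.05, and the count of changed splicing-factor genes (33) stayed within 1.5 times its value. Depth limits minor forms: shares rest on estimates without counting intervals. An event called alone needed a limma p of at most 7.89e-06, while events called together can pass at a larger p.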
